A study of Mus musculus with 20 samples.

Results

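The motile cilia and axoneme genes described here are 43 mouse genes, taken by symbol from a count table of 47729 genes. They are axonemal dyneins, radial spokes, docking proteins, parts of the central pair, tektins and other genes of ependymal cilia. All 43 had a row, and all 43 passed the filter on low counts that left 17527 genes to test. RNA sequencing had been done on the hippocampus of male mice of the inbred strain C57BL/6 at 5 or 24 months of age. At each age, mice had either no intervention (control) or an enriched environment, in general a cage with more space and objects than a standard one. The 20 libraries were spread evenly over these 4 groups, 5 to a group, and the labels name no mutation, transgene or drug. Separate animals are not stated for the libraries, so p-values measure the spread between these samples, which may in part be technical.

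Motile cilia are beating hairs on the cell surface. Their core, the axoneme, is a ring of doublet microtubules around a central pair. Dynein arms on the doublets slide them past each other, docking complexes and a molecular ruler place the arms, radial spokes carry signals from the central pair, and tektins and other inner proteins stiffen the doublet wall. In the brain these cilia are known from the ependyma, the lining of the ventricles, whose multiciliated cells move cerebrospinal fluid. The ependyma and the choroid plexus border the hippocampus, so a dissected hippocampus can hold varying amounts of both.

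Library totals ran from 26065565 to 37366991 counts, and all 40 pairs within groups differed beyond sampling noise (chi-square per degree of freedom 5.92 to 50.9). Markers of hippocampal neurons were present in every library, with Prox1 at 59.3 to 138 CPM (counts scaled to a common library total) and Fibcd1 at 132 to 267 CPM. Replicate 4 of the 5-month enriched group (Ifit3, an interferon-induced gene, at 66.2 CPM against a median of 4.12 over all libraries) and replicate 5 of the 24-month controls (Alb, the albumin gene, at 68.2 CPM against a median of 3.22) stood apart. The amount of ependyma in a library was read from 30 ependymal markers that are not among the 43 genes, of which 29 were tested. Many of them, such as Spef2, Daw1, Enkur, Zmynd10 and Mns1, are themselves genes of motile cilia, so the marker level is in part a level of the same kind of gene as the 43. None of these 30 was at 0 in any library. Their summed level was 56.6 to 111 CPM in 5-month controls and 58.4 to 153 CPM in 5-month enriched mice. At 24 months it was 47.5 to 82.0 CPM in controls and 43.7 to 79.5 CPM in enriched mice. The summed level of 22 choroid plexus markers, none of them at 0, reached 4663 CPM in 5-month controls, 1588 CPM in 5-month enriched mice, 2602 CPM in 24-month controls and 323 CPM in 24-month enriched mice. Its medians were 297, 339, 280 and 177 CPM in the same order. In bulk tissue, fewer ependymal cells and less RNA per cell cannot be told apart.

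The counts of some genes may hold reads of another gene, because the library kit does not mark the strand. Of the 43 genes, 28 overlap another gene, 19 share exon bases with one and 3 share over 10% of them. These 3 are Ccdc39 (16.9%, with Ttc14, an opposite-strand gene at 129 to 195 CPM), Tekt2 (20.8%) and Dnah3 (10.5%). Of the 31-base words in the transcripts of Dnah7a, 43.8% also occur in those of its paralog Dnah7b, so the counts of this pair are uncertain. Of the words of Dnah7b, 32.1% occur in Dnah7c. For Spag17, 14.5% of the words occur in other genes, and 9.31% in the opposite-strand gene Wdr3. For Spag6 and Spag6l, a pair of close paralogs, only 2.51% of the words of Spag6 and 1.86% of those of Spag6l are shared between them.

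The first question was which of the 43 genes rise and fall with the ependyma from mouse to mouse. For each gene, Pearson's r was taken between its log2 CPM and the mean log2 CPM of the ependymal markers over the 20 libraries, after subtracting group means from both, so that age and housing could not make the correlation. A gene was said to follow the ependyma at an r of 0.7 or more, to follow it in part from 0.4, and not to follow it below that. By this rule 22 genes followed, 11 followed in part and 10 did not. Over all 17498 tested genes outside the marker list, 2.71% followed and 79.5% did not. In permutation tests within groups, 33 of the 43 correlations had an adjusted p under 0.05 over the 43 relations tested, 32 of them positive. The libraries with the highest marker levels, 5-month enriched replicate 5 and 5-month control replicate 2, lay farthest from the median, and without them 18 genes followed and 35 stayed in their class. For each log2 unit of marker level, the 22 that followed moved by 0.70 to 1.59 log2 units (median 0.98) and the 11 in part by 0.27 to 0.92 (median 0.38).

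**Figure D1:**
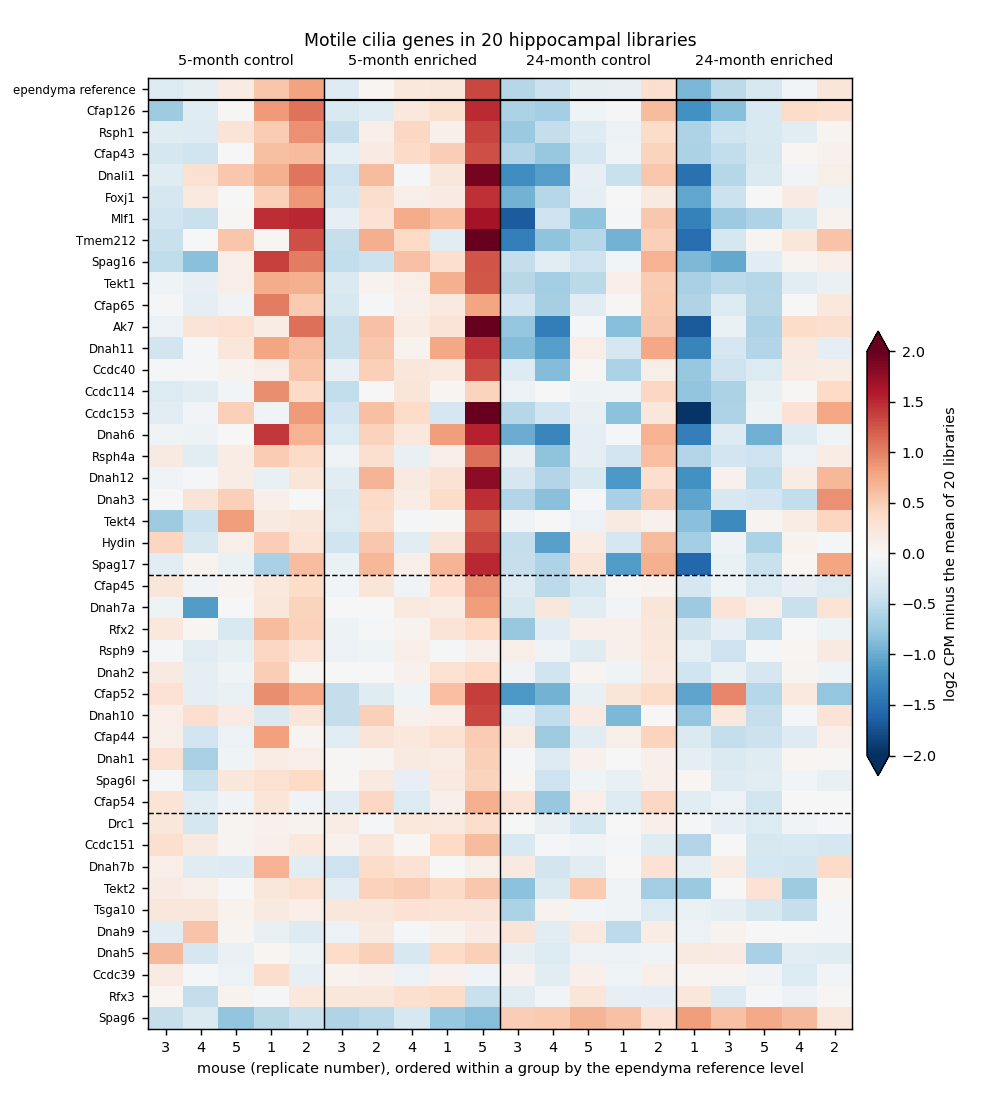
Level of the 43 motile cilia genes (rows, ordered by r with the ependymal markers) in the 20 libraries (columns, ordered within each group by the marker level). Colour gives log2 CPM minus the gene's mean over 20 libraries, saturating at 2 on either side, the top row is the ependymal marker level, and dashed lines part the 22 genes that follow, the 11 in part and the 10 that do not. The upper rows are darkest red in 5-month enriched replicate 5, and Spag6 in the bottom row is blue in every 5-month library and red in every 24-month library.

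Among the regulators, the transcription factors of this programme split across all 3 classes. Foxj1 (chromosome 11, 116330704 to 116335399, minus strand, GRCm38), the master regulator of motile ciliogenesis, followed with r = 0.91 (permutation p = 2e-05, 0.82 without the farthest libraries). Rfx2, an RFX factor of ciliated cells, followed in part (r = 0.63, permutation p = 0.00242). Rfx3 (chromosome 19), a related factor, did not (r = -0.28, permutation p = 0.299). Per kilobase of exon, Rfx3 had the highest level of the 43, 10.1 CPM per kb, against 4.00 for Foxj1 and 0.62 for Rfx2. Foxj1 stood at 13.5, 17.7, 7.69, 11.2 and 9.62 CPM in 5-month controls and at 10.9, 12.4, 7.56, 10.5 and 26.7 CPM in 5-month enriched mice. Among 24-month mice it stood at 9.77, 10.97, 5.00, 6.49 and 8.51 CPM in controls and at 4.69, 9.03, 7.22, 10.8 and 9.72 CPM in enriched mice. The 26.7 CPM belongs to the library with the most ependymal marker RNA, and the 4.69 CPM to the one with the least. All 4 groups overlapped, and the age difference of Foxj1 was -0.63 ± 0.21 (log2, SE) as the mean of both housings (edgeR adjusted p = 0.114).

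RFX factors bind the X-box, an inverted repeat near the start of cilia genes, and Foxj1 binds forkhead sites, so the promoters of the group were searched for both. RefSeq promoters (GRCm38.p6, 250 bases before to 50 after a start) were at hand for 37 of the 43 genes. On either strand, an X-box was found in 6 of them, 16.2%, against 1.53% of all 32851 promoters and 1.75% of 27025 genes. The 6 genes lay in every class: Spag16 and Hydin follow the ependyma, Cfap44 and Cfap45 follow it in part, and Ccdc151 and Tekt2 do not. The 4 stretches printed here show that the same motif precedes genes that follow and genes that do not, with the X-box in capitals, 5′ to 3′ on the gene's strand.
Hydin, plus strand, chr8:110266916-110266976: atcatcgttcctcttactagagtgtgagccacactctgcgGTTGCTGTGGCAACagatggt
Spag16, plus strand, chr1:69826827-69826920: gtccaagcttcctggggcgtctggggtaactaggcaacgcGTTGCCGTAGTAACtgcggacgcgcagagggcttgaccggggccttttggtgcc
Ccdc151, minus strand, chr9:22002753-22002844: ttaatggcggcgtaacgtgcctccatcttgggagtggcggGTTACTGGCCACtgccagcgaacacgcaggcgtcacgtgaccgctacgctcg
Tekt2, minus strand, chr4:126325689-126325757: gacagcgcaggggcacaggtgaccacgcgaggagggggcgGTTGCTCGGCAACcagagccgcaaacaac
In Cfap44 the match was GTTGCTATGGCAAC and in Cfap45 GTTGCTATGGTAAC. The forkhead sequence GTAAACA was found on either strand in 3 genes, Ak7, Cfap43 and Mlf1, all of which follow the ependyma. That is 8.11% of the 37 against 3.65% of promoters and 4.05% of genes. No stretch printed here holds both motifs in capitals, and a match in this window is a description of the letters, not of binding.

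The paralogs Spag6 and Spag6l had neither motif in this window. The 100 bases before their RefSeq starts are shown because the pair parts in the age comparison.
Spag6, plus strand, chr2:18698922-18699021: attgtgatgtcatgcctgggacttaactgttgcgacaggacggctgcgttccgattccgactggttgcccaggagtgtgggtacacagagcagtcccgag
Spag6l, minus strand, chr16:16829364-16829463: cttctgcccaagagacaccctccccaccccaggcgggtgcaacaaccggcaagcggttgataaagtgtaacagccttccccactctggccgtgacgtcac
The RefSeq start of Spag6 lies inside the span of the gene in the GENCODE M21 annotation, which begins at 18694032, so this is not the only annotated start. The same holds for Spag6l, whose span on the minus strand reaches 16829456, inside the stretch printed for it.

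Spag6 (ENSMUSG00000037708, chromosome 2, 18694032 to 18750413, plus strand), a protein of the central pair, was the only one of the 43 genes called higher at 24 months, and it rose in both housings. It stood at 2.68, 2.89, 2.84, 3.23 and 2.26 CPM in 5-month controls and at 2.32, 2.70, 2.58, 3.16 and 2.16 CPM in 5-month enriched mice. It stood at 5.97, 4.82, 5.58, 5.68 and 6.38 CPM in 24-month controls and at 7.09, 4.64, 5.98, 6.20 and 6.69 CPM in 24-month enriched mice. All 10 libraries of old mice lay above all 10 of young mice, and the housings overlapped at both ages. Its log2 fold change was 1.03 ± 0.13 in controls (edgeR adjusted p = 0.000665), 1.25 ± 0.13 in enriched mice (8.73e-05) and 1.14 ± 0.09 as the mean of both. Of the 17527 genes tested, 0.0685% were called higher with age in controls, 0.342% in enriched mice and 1.79% over both housings. The age effects in the 2 housings differed by 0.22 ± 0.18 (edgeR adjusted p = 0.9999). An opposite-strand gene, Gm20539, shares 8.34% of the exon bases of Spag6 and stood at 0 to 0.294 CPM. Its part in the counts of Spag6 was not tested.

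Spag6 did not follow the ependyma. Its r was -0.55 (permutation p = 0.028, adjusted 0.0374; -0.55 without the farthest libraries), and Spearman's rho was -0.43 (permutation p = 0.0924, adjusted 0.117). Within single groups r was between -0.81 (24-month enriched) and -0.21 (5-month control), with a slope of -0.23 log2 units per log2 unit of marker level. With the marker level as a covariate, the rise with age stood at 1.01 ± 0.10 over both housings (edgeR adjusted p = 2.64e-05).

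Spag6l (ENSMUSG00000022783, chromosome 16, 16753016 to 16829456, minus strand), the paralog, followed the ependyma in part. Its r was 0.55 (permutation p = 0.0231), but 0.33 without the farthest libraries. It stood at 9.79, 10.5, 7.77, 5.81 and 9.27 CPM in 5-month controls and at 9.10, 8.95, 8.09, 7.05 and 10.8 CPM in 5-month enriched mice. At 24 months it stood at 7.13, 8.53, 8.11, 5.95 and 7.49 CPM in controls and at 8.16, 7.16, 6.60, 7.64 and 6.82 CPM in enriched mice. The ages overlapped in both housings, with log2 differences of -0.21 ± 0.14 in controls and -0.28 ± 0.14 in enriched mice (edgeR adjusted p = 0.743 and 0.450). The count of Spag6 per count of Spag6l within a library, which does not depend on depth, ran in controls from 0.244 to 0.555 at 5 months and from 0.565 to 0.954 at 24 months. In enriched mice it was 0.199 to 0.448 at 5 months and 0.648 to 0.982 at 24 months. The log2 ratio was higher at 24 months by 1.23 in controls and by 1.51 in enriched mice, each with an exact two-sided permutation p of 0.00794, the smallest that 5 libraries against 5 can give.

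The other 4 central pair genes included 3 that followed: Spag16 (r = 0.88), Hydin (0.71) and Spag17 (0.71, the lowest of the 22). Cfap54 followed in part (r = 0.46, permutation p = 0.0568). Their age differences over both housings, on the log2 scale, were -0.62 ± 0.30 for Spag16, -0.51 ± 0.22 for Hydin, -0.44 ± 0.29 for Spag17 and -0.18 ± 0.14 for Cfap54. None of the 4 was called. Thus all the central pair genes but Spag6 had lower fitted levels at 24 months.

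**Figure D2:**
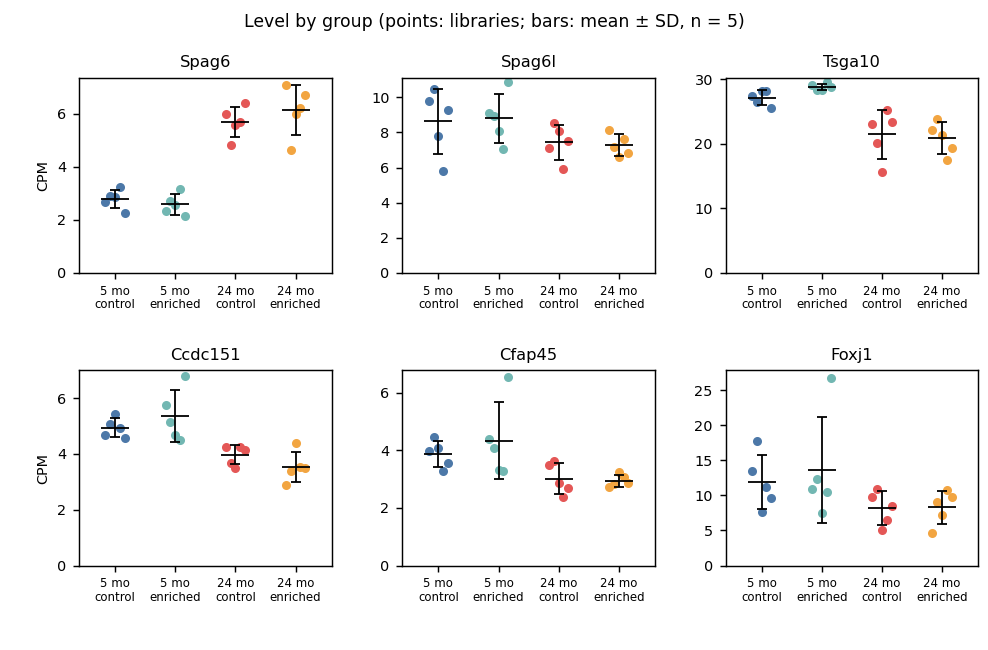
CPM of Spag6, Spag6l, Tsga10, Ccdc151, Cfap45 and Foxj1 in the 4 groups, 1 point per library, with black bars for the mean ± SD (n = 5). Spag6 is higher in all 24-month libraries than in any 5-month library, Tsga10 and Ccdc151 are lower in the 24-month libraries of each housing, and Foxj1 overlaps among all groups.

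All 3 radial spoke head genes were positively related to the ependyma. Rsph1 (r = 0.96, permutation p = 1e-05, the smallest these permutations can give) and Rsph4a (r = 0.81) followed, and Rsph9 followed in part (r = 0.63). Rsph1 stood at 6.93, 9.19, 4.13, 4.08 and 5.82 CPM in 5-month controls and at 5.21, 5.30, 3.52, 6.48 and 12.5 CPM in 5-month enriched mice. Among 24-month mice it stood at 4.50, 6.30, 2.90, 3.47 and 4.04 CPM in controls and at 3.15, 5.08, 3.69, 4.19 and 3.94 CPM in enriched mice. Its groups overlapped, its r was 0.97 to 0.99 within each of the 4 groups, and its age difference was -0.61 ± 0.20 (edgeR adjusted p = 0.107). Rsph9 had a higher level, 8.57 CPM per kb against 3.80 for Rsph1 and 1.33 for Rsph4a, with an age difference of -0.06 ± 0.09.

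The 12 dynein arm genes lay in all 3 classes. Of the outer arm heavy chains, Dnah11 followed (r = 0.85), while Dnah5 (r = -0.14) and Dnah9 (r = -0.06) did not. Of the inner arm chains, Dnah6 (r = 0.83), Dnah12 (0.75) and Dnah3 (0.74) followed, as did the light intermediate chain Dnali1 (0.92). Dnah7a (0.69), Dnah2 (0.62), Dnah10 (0.57) and Dnah1 (0.56) followed in part, and Dnah7b (0.30) did not. Per kilobase of exon, Dnah9 had 1.75 CPM per kb and Dnah5 0.54, against 0.43 for Dnah6, 0.21 for Dnah11, 0.23 for Dnah12 and 0.12 for Dnah3. Over both housings the age differences were -0.98 ± 0.29 for Dnali1, -0.96 ± 0.28 for Dnah6 and -0.70 ± 0.26 for Dnah11, and they were -0.06 ± 0.10 for Dnah9, -0.11 ± 0.14 for Dnah7b and -0.33 ± 0.13 for Dnah5. No dynein arm gene was called in any comparison by edgeR.

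Among the docking and ruler genes, partners did not always move together. Ccdc114 (r = 0.84) and Ccdc151 (r = 0.36) both belong to the machinery that docks the outer dynein arm. Ccdc40 (r = 0.84) and Ccdc39 (r = -0.20) form the molecular ruler. Drc1, of the nexin-dynein regulatory complex, had an r of 0.37. Ccdc39 stood at 20.6 to 31.7 CPM and Ccdc40 at 1.46 to 6.80 CPM, and reads of the abundant opposite-strand Ttc14 may count in the former; the part of Ttc14 in this result was not tested.

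Ccdc151 (ENSMUSG00000039632, chromosome 9, 21989871 to 22002634, minus strand) fell with age. It stood at 4.69, 5.06, 5.44, 4.93 and 4.56 CPM in 5-month controls and at 5.75, 5.14, 4.66, 4.49 and 6.80 CPM in 5-month enriched mice. At 24 months it stood at 4.25, 3.69, 3.51, 4.25 and 4.13 CPM in controls and at 2.90, 3.40, 4.38, 3.54 and 3.48 CPM in enriched mice. The ages did not overlap in either housing. The log2 change was -0.32 ± 0.12 in controls, where it was not called (edgeR adjusted p = 0.469), -0.60 ± 0.12 in enriched mice (0.0259) and -0.46 ± 0.09 over both (0.00522). Genes called lower made up 0.0228% of those tested in controls, 0.154% in enriched mice and 1.25% over both housings.

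The tektins and inner proteins of the doublet held the gene closest to the markers, Cfap126 (r = 0.97), known as Flattop. Tekt1 (0.88) and Tekt4 (0.74) followed, Cfap45 (0.70, just under the limit) and Cfap52 (0.62) followed in part, and Tekt2 (0.30) did not. For Tekt2, which had 13 to 49 counts per library, Spearman's rho was 0.49 (permutation p = 0.0297, adjusted 0.0426). Cfap45 (chromosome 1, 172520801 to 172545870, plus strand) stood at 3.98, 4.45, 4.07, 3.26 and 3.56 CPM in 5-month controls and at 4.38, 4.06, 3.33, 3.29 and 6.56 CPM in 5-month enriched mice. Among 24-month mice it stood at 3.50, 3.63, 2.86, 2.38 and 2.68 CPM in controls and at 2.72, 2.83, 3.23, 3.07 and 2.85 CPM in enriched mice. The ages overlapped in controls and not in enriched mice. Cfap45 fell by 0.46 on the log2 scale over both housings (SE 0.12, edgeR adjusted p = 0.0358), a call lost in 16 of 26 alternatives, 13 of them the leaving out of 1 library, with an adjusted p of up to 0.211.

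Of the remaining 8 genes of cilia and flagella, 6 followed: Cfap43 (r = 0.95), Mlf1 (0.90), Tmem212 (0.90), Cfap65 (0.86), Ak7, an adenylate kinase (0.85), and Ccdc153 (0.84). Cfap44, a relative of Cfap43, followed in part (0.57). Mlf1 had the most negative age difference of the 43, -1.16 ± 0.32 over both housings, and was not called (edgeR adjusted p = 0.0546). Its level ran from 0.922 to 3.78 CPM in 5-month controls and from 0.362 to 1.90 CPM in 24-month controls.

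Tsga10 (ENSMUSG00000060771, chromosome 1, 37754776 to 37866429, minus strand), known from the sperm tail, did not follow the ependyma (r = 0.0012, permutation p = 0.995) and fell with age. It stood at 27.4, 26.5, 28.2, 28.2 and 25.5 CPM in 5-month controls and at 29.2, 28.4, 28.4, 29.5 and 28.9 CPM in 5-month enriched mice. At 24 months it stood at 23.0, 20.1, 15.6, 25.3 and 23.3 CPM in controls and at 22.2, 23.9, 21.5, 17.5 and 19.3 CPM in enriched mice. All 10 old libraries lay below all 10 young ones. The log2 change was -0.34 ± 0.10 in controls (edgeR adjusted p = 0.270, not called), -0.47 ± 0.10 in enriched mice (0.0308) and -0.40 ± 0.07 over both (0.00244).

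**Figure D3:**
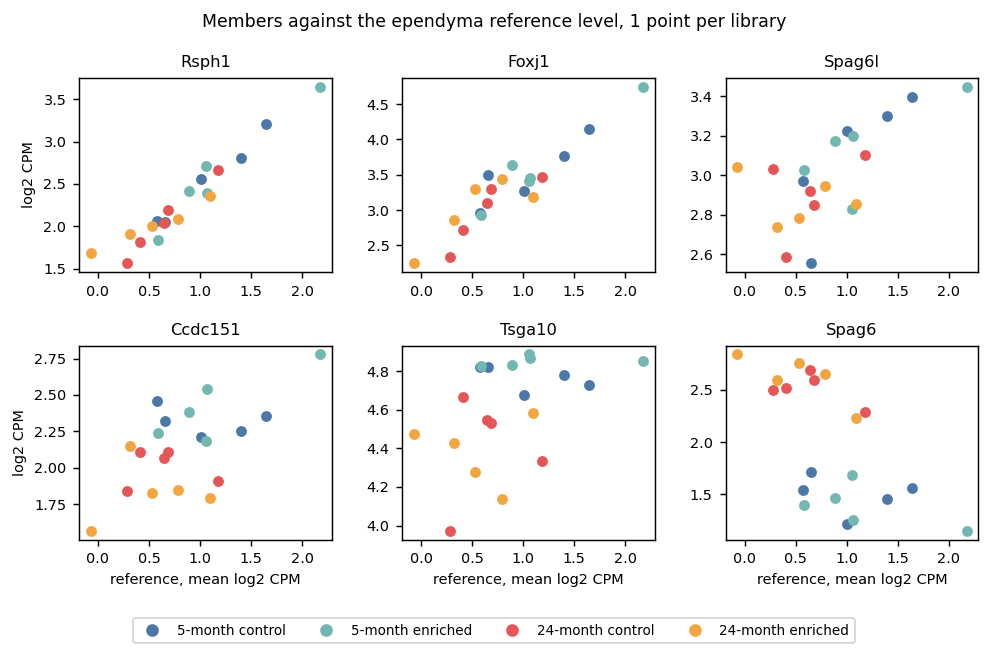
Log2 CPM of Rsph1, Foxj1, Spag6l, Ccdc151, Tsga10 and Spag6 against the ependymal marker level (mean log2 CPM of 29 genes), 1 point per library, coloured by group. Rsph1 and Foxj1 rise along 1 line through all groups, whereas in Spag6 the 24-month points lie above and in Tsga10 below the 5-month points at the same marker level.

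The second question was how the group as a whole stood at 24 against 5 months. In controls, 1 gene was called higher (Spag6) and 0 lower by edgeR, with 4 lower at an unadjusted p under 0.05 (Tsga10, Ccdc151, Mlf1 and Cfap45), where 3.79% of all genes were. In enriched mice, 1 was called higher and 2 lower (Ccdc151 and Tsga10), with 22 lower at an unadjusted p under 0.05 against 5.74% of all genes. Over both housings, 1 was called higher and 3 lower (Ccdc151, Cfap45 and Tsga10), with 29 lower at an unadjusted p under 0.05 against 8.74% of all genes. In the same order, 0.0685%, 0.342% and 1.79% of all genes tested were called higher and 0.0228%, 0.154% and 1.25% lower. The median log2 difference of the 43 was -0.34 in controls, -0.55 in enriched mice and -0.46 over both, and 41, 42 and 42 of 43 lay below 0. Over all genes the medians were 0.0021, -0.0040 and -0.0020. Most of the 22 choroid plexus markers lay below 0 as well, with medians of -0.69, -1.44 and -1.07 and 22, 20 and 21 of 22 below 0, though 0 of them were called by edgeR in any of the 3 comparisons (0, 0 and 6 lower at an unadjusted p under 0.05). Without both libraries that stood apart, the same genes were called in each of these comparisons, and Spag6 stood at 0.98 in controls and 1.33 in enriched mice. In enriched mice both falls lost their call without 5-month enriched replicate 1, 2 or 5 or 24-month enriched replicate 4 or 5, each left out alone, which left 1 called gene, Spag6. Tsga10 alone lost its call without 5-month enriched replicate 3 or 24-month enriched replicate 3, and Ccdc151 alone without 24-month enriched replicate 1. DESeq2 called 10 of the 43 over both housings where edgeR called 4: Ccdc40, Rsph1, Dnah6, Dnali1, Tekt1 and Mlf1 came in as well, all lower at 24 months. By DESeq2, 2.97% of all genes were called higher and 2.55% lower over both housings, beside 1 and 9 of the 43.

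The age difference was largest in the genes that followed the ependyma. Over both housings the median was -0.59 for the 22 that follow, -0.24 for the 11 in part and -0.16 for the 10 that do not, and the median of the ependymal markers themselves was -0.58. A second reference was 7 tested ependymal markers that are not known from the axoneme, not all of them among the 29. With it, 15 of the 43 genes followed in place of 22, Foxj1 at an r of 0.82, Rsph1 at 0.88 and Spag6 at -0.41. Among these 7, the lowest log2 difference of enriched against control was -1.38 at 5 months and -1.67 at 24 months. Among the 29 it was -0.54 and -1.03. The median age difference of those 7 markers was -0.63, all 7 lay below 0, and 1 of them was called lower by edgeR (Fam216b). All 22 followers lay below 0, but 0 of them were called by edgeR, while 3 of the 10 that do not follow were called (Spag6 higher, Ccdc151 and Tsga10 lower). Of all genes tested, 1.79% were called higher and 1.25% lower in this comparison. Followers had large standard errors, from 0.17 for Ccdc114 to 0.36 for Tmem212, beside 0.07 for Tsga10, 0.09 for Ccdc151 and 0.09 for Spag6. The marker level of the libraries moved with age too, from a mean of 1.06 ± 0.46 (log2 CPM, SD, n = 5) at 5 months to 0.64 ± 0.34 at 24 months in controls, and from 1.15 ± 0.60 to 0.53 ± 0.45 in enriched mice, with overlapping ranges.

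**Figure D4:**
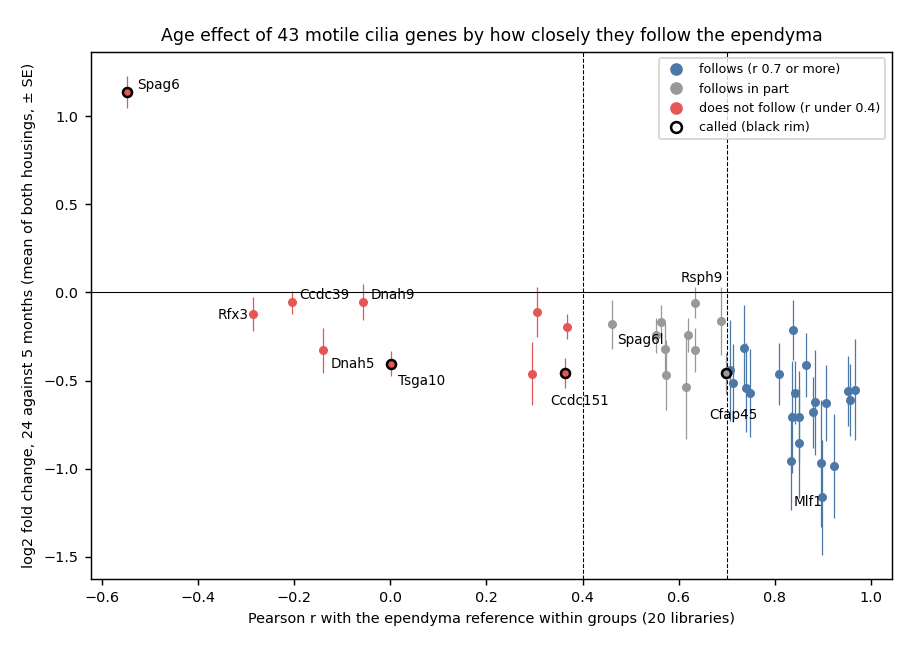
Log2 fold change between 24 and 5 months (mean of both housings, bars ± SE) against r with the ependymal markers within groups, 1 point per gene, for the 43 genes. Colours give the class, dashed lines its limits at 0.4 and 0.7, and black rims mark the 4 called genes; Spag6 stands alone at the upper left, at an r of -0.55 and a log2 fold change of 1.14.

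With the ependymal marker level as a covariate, the age differences of the followers were near 0. That was largely set in advance, since the classes were made by r with this same level. The median of the followers over both housings went from -0.59 to -0.06, with 15 of 22 below 0, and that of all 43 from -0.46 to -0.09. Among the 10 that do not follow, the median was -0.16 in both fits. Tsga10 stood at -0.41 ± 0.08 (edgeR adjusted p = 0.0108) and Ccdc151 at -0.39 ± 0.10 (0.0354) with the covariate, while Cfap45 stood at -0.24 ± 0.11 and was no longer called (0.211). In enriched mice alone, neither Ccdc151 (0.0754) nor Tsga10 (0.0502) was called with the covariate, and Spag6 was (1.10 ± 0.13, 0.00108). With the choroid plexus level as the covariate, the median of the 43 was -0.38 over both housings. Whether the marker level stands for the number of ependymal cells in a sample was not tested.

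**Figure D5:**
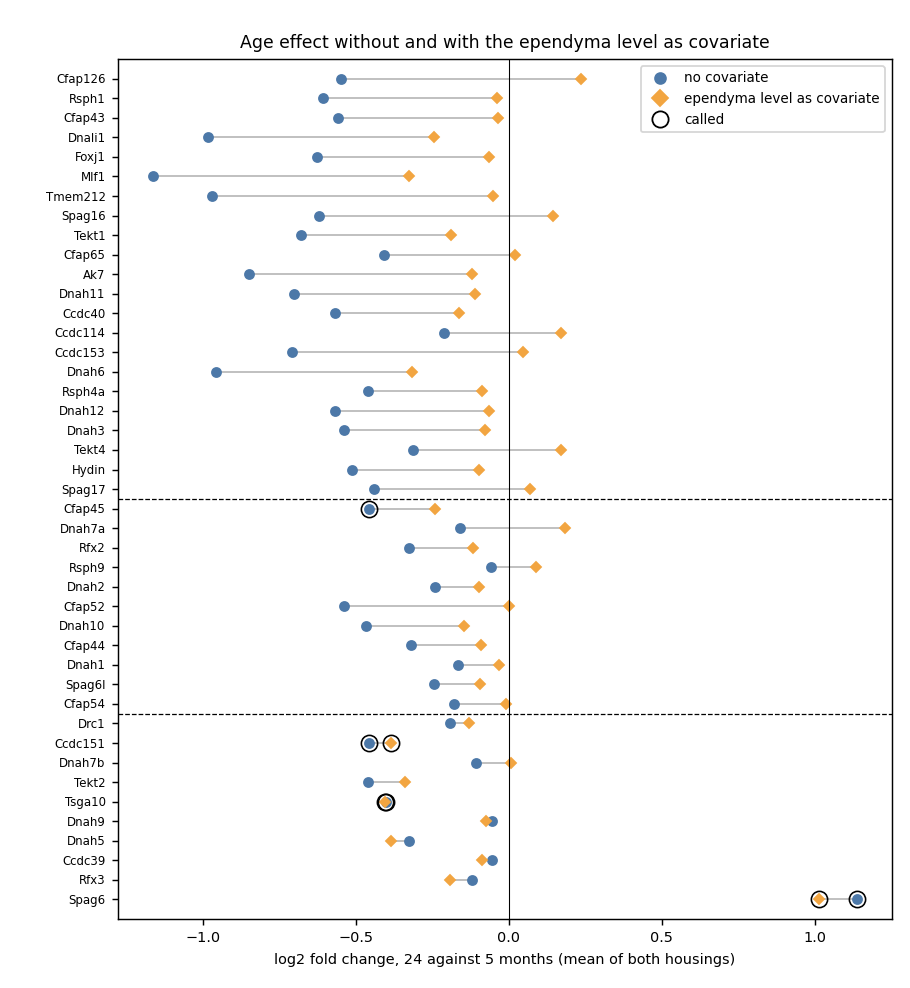
Log2 fold change between 24 and 5 months (mean of both housings) of the 43 genes without a covariate (blue circles) and with the ependymal marker level as covariate (orange diamonds), rows ordered by r and parted by class with dashed lines. Black rings mark calls. The median of the 22 followers goes from -0.59 to -0.06, which was largely set by choosing them for their r with this level. Tsga10, Ccdc151 and Spag6 are ringed in both fits.

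Enriched housing was the third comparison. By edgeR, 0 of the 43 genes were called at 5 months, at 24 months, as the mean of both ages or in the difference of the age effects between housings, 0 of the 43 had an unadjusted p under 0.05 in any of them, and DESeq2 called 0 as well. Of all genes tested, 0.0% were called in each. At 5 months the median log2 difference of the 43 was 0.16, with 36 above 0. It was 0.21 for the followers, for all 22 of which 5-month enriched replicate 5 was the highest library of its group, and 0.03 with the ependymal level as covariate. Without that library the median of the 43 was -0.04. At 24 months the median of the 43 was -0.04, with 29 below 0, but 0.05 without 24-month control replicate 2. The choroid plexus markers had lower fitted levels in the enriched groups at both ages, with median log2 differences of -1.04 at 5 months (22 of 22 below 0) and -1.74 at 24 months (21 of 22). Of them, 0 were called by edgeR (0 and 8 lower at an unadjusted p under 0.05, and 17 as the mean of both ages). Of all genes, 1.26%, 0.89% and 1.71% were lower at that p. At 5 months the mean log2 CPM of these markers was 4.85, 4.23, 1.41, 0.48 and 1.68 in controls. In enriched mice of that age it was 3.68, 0.70, 1.34, 2.60 and 2.00. The median of their summed level at 5 months was higher in enriched mice, 339 CPM against 297 CPM in controls. With their level as covariate, the median of the 43 was 0.23 at 5 months and turned to 0.05 at 24 months, with 12 below 0, so the sign of the 24-month median was not stable. The largest single differences at 5 months were 0.73 ± 0.40 for Spag17 and 0.71 ± 0.35 for Dnah12. Tsga10 lay at 28.4 to 29.5 CPM in 5-month enriched mice and at 25.5 to 28.2 CPM in 5-month controls, without overlap, but the log2 difference was 0.09 ± 0.10 (edgeR adjusted p = 0.9998).

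Other genes of the cilium, from lists that hold none of the 43, were set beside them for the age difference over both housings. Of all genes tested, edgeR called 1.25% lower and 1.79% higher in this comparison. At an unadjusted p under 0.05, 8.74% were lower and 9.33% higher. Of 24 other genes of the radial spokes, central pair and nexin-dynein regulatory complex, 3 were called lower and 0 higher by edgeR: Maats1 (-0.81 ± 0.20), Spef1 (-0.34 ± 0.08) and Ccdc65 (-0.27 ± 0.07). At an unadjusted p under 0.05, 12 of these 24 were lower and 0 higher. Of 15 other tektins and inner proteins, 1 was called lower, Spag8 (-0.66 ± 0.18), with 7 lower and 0 higher at an unadjusted p under 0.05. Of 21 other dynein arm and assembly genes, 0 were called, with 8 lower and 2 higher at an unadjusted p under 0.05. Of 17 regulators of multiciliated cells, 0 were called, with 3 lower at an unadjusted p under 0.05. Genes of intraflagellar transport and the BBSome, which build primary and motile cilia alike, had 3 of 38 called lower: Ttc30a1 (-0.33 ± 0.09), Ift80 (-0.23 ± 0.06) and Bbs1 (-0.19 ± 0.05). At an unadjusted p under 0.05, 11 of these 38 were lower and 1 higher. Their median was -0.08, against -0.46 for the 43 genes and -0.0020 for all genes. Of 10 signalling genes of the neuronal primary cilium, 0 were called, with 1 lower at an unadjusted p under 0.05 (Gpr161, -0.24 ± 0.11), and their median was -0.03. Of 10 astrocyte markers 1 was called lower, the water channel gene Aqp4 (-0.41 ± 0.08), but 7 lay above 0 (median 0.04). Of 10 microglia markers 1 was called lower, Fcrls (-0.53 ± 0.11), but 8 lay above 0 (median 0.12).

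The genes whose levels were most like that of Spag6 over the 20 libraries were not cilia genes of these lists. With age left in, they were a gene with no symbol (ENSMUSG00000095041, Pearson's r = 0.94), A530053G22Rik (0.89), the protocadherins Pcdhb9 (0.89) and Pcdhb5 (0.88), and Pisd-ps1 (0.88). With group means subtracted, they were Chst7 (0.80), Fam57b (0.77), A930038B10Rik (0.76), Zfp870 (0.75) and Znfx1 (0.75). No gene is in both lists of 5. Each list holds the 5 highest r over all genes tested, and none of these r was tested against chance. They are descriptions over libraries that share age, depth and tissue.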

How the data were processed

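The libraries were made from total RNA with a TruSeq RNA v2 kit, per the labels' protocols. The submitters' processing notes name the genome build GRCm38 and the tools featureCounts 1.4.6-p4, STAR 2.4.1d and CASAVA 1.8.2. The annotation release, the strand setting and how multi-mapping reads were counted are not stated in the labels. The authors deposited counts per gene, whole numbers with no normalization, which were used here; their table of length-scaled values was not used.

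Counts were fitted with edgeR 4.0.16 in R 4.3.3 (filterByExpr with a minimum count of 10, TMM scaling, quasi-likelihood test, 1 coefficient per group, 20 libraries, 7 contrasts). Calls are at a Benjamini-Hochberg adjusted p under 0.05 over 17527 tested genes. Standard errors are the log2 fold change divided by the root of F. Log2 CPM used a prior count of 2. Correlations were tested with 100000 permutations of libraries within groups, two-sided. The test was run on simulated counts for age in controls (17402 genes): 24, 62, 78 and 96% of genes changed 1.25, 1.5, 2 and 3 times were recovered, with 4 unchanged genes called. DESeq2 1.42.0 and other alternatives appear in the closing section. No block was fitted, since replicate numbers follow accession order and no label ties libraries together. Gene positions come from GENCODE M21 and promoters from RefSeq (GRCm38.p6).

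The 43 genes, the lists, the classes and the named genes were chosen with earlier results of these data known. All 43 could be named; from the other lists, genes called in a contrast or up to 3 of smallest p; and the 5 genes most like Spag6 by each measure. The ratio of Spag6 to Spag6l was added after the data were seen.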

Additional observations from a re-analysis of the deposited data

Results flagged for a closer look

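In 6 of the 172 sets of 5 libraries (43 genes in 4 groups), the highest or lowest library lay far from the other 4. Chance flags about 1 in 20 such sets. High libraries, in log2 CPM, were 24-month control replicate 2 for Ccdc114 (2.69), 5-month control replicate 2 for Ccdc40 (2.03) and 5-month enriched replicate 5 for Dnah7a (0.42). Each of these 3 was the library with the most ependymal marker RNA of its group. Low libraries were 5-month enriched replicate 5 for Rfx3 (6.34), 5-month enriched replicate 4 for Dnah5 (2.73) and 5-month enriched replicate 3 for Tekt2 (-0.30). Replicate 5, low for Rfx3, was the highest of its group for the markers, and Rfx3 and Tekt2 are among the genes that do not follow the ependyma.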

How the results depend on the processing

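Over 27 alternatives in each housing (26 for the mean of both), Spag6 stayed called and its log2 fold change kept to 0.93 to 1.09 in controls, 1.10 to 1.33 in enriched mice and 1.01 to 1.18 over both; Spag6l was called in none. In controls the count of called genes was 1 throughout. In enriched mice it was 3, but 1 with only the groups compared in the fit, 1 with the ependymal level as covariate, and 1 to 3 leaving out 1 library (1 without 5-month enriched replicates 1, 2 or 5 or 24-month enriched replicates 4 or 5). There, Ccdc151 lost its call in 8 and Tsga10 in 9 of 27 alternatives. Over both housings the count was 4, but 10 with DESeq2, 3 each with no filter on low counts, the ependymal and the choroid plexus level as covariate (Cfap45 lost its call in each), and 3 to 8 leaving out 1 library (8 without 5-month enriched replicate 3 or 24-month control replicate 2); Ccdc151 and Tsga10 were called in all 26. The cause was not tested. In the housing comparisons the count was 0 in every alternative. The number of genes that follow the ependyma, 22, was 18 to 25 leaving out 1 library and 7 with choroid plexus markers in place of ependymal ones; the other alternatives gave 15 to 25. Over 11 alternatives in each housing, the difference of the Spag6 to Spag6l log2 ratio was 1.12 to 1.42 in controls and 1.37 to 1.66 in enriched mice. The ages did not overlap in this ratio in either housing. Leaving out libraries therefore could not change its direction, and the exact p was always the smallest possible, so these alternatives were no test of it. The age differences of Spag6, Spag6l, Tsga10, Ccdc151 and Cfap45 kept their direction in every alternative. Other genes changed sign: over both housings, 42 of the 43 lay below 0 in the main fit and 31 with the ependymal level as covariate. Cfap126 went from -0.55 ± 0.29 to 0.24 ± 0.11 and was called in neither fit (edgeR adjusted p = 0.320 and 0.224). The median housing difference of the 43 at 24 months, -0.04, turned to 0.05 with the choroid plexus level as covariate and without 24-month control replicate 2. That at 5 months, 0.16, turned to -0.04 without 5-month enriched replicate 5. No paired analysis was possible because the labels give no number shared between groups. Counting error limits the lowest genes: Dnah7a, Spag17, Mlf1 and Tekt4 had as few as 8 to 10 counts in a library.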
